A study of Rattus norvegicus with 47 samples.

Results

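Liver RNA taken 6 h after about 100 µg of all-trans-retinoic acid (RA) was set against liver RNA of vehicle-treated rats, all of them raised without vitamin A. The comparison was chosen by sample title: the 3 arrays of the kinetic experiment titled for RA at 6 h and the 3 titled untreated at 0 h, 6 of the 47 arrays of the series. All 6 rats were female Sprague-Dawley rats aged 8 weeks. They were born to dams on a purified AIN-93G diet lacking vitamin A and kept on it after weaning, so both groups shared the deficient diet. The treatment notes state that the 0 h rats received vehicle only and were killed at 0 h. The route of RA and the clock time of killing were not stated in the sources used here, so RA cannot be told apart from the time since dosing or the time of day. RNA of each liver was hybridised to its own single-colour Affymetrix array. The same experiment held deficient rats killed 3 h (3 arrays), 10 h (4 arrays) and 16 h (3 arrays) after RA, and all 16 arrays entered 1 fit.

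RA is the active acid made from vitamin A. It enters the nucleus and binds the RA receptors, which sit on DNA as dimers with retinoid X receptors and switch on genes that carry a direct repeat of a short motif. In the liver the retinol ester store is made by LRAT, mainly in stellate cells, and RA is broken down by cytochrome P450 enzymes of the CYP26 family, whose genes are themselves RA receptor targets.

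The receptor motif, spelled NGNTCA, where the first N stands for A or G and the second for G or T, was searched as a direct repeat with any 5 bases between the copies (DR5) on both strands from 250 bases before to 50 bases after each gene's start in the RefSeq promoter table (build GRCr8). Of the 38 genes called 6 h after RA (below), 33 had a promoter there, and 2 of those held a DR5, Cyp26a1 and Rarb, against 0.382% of all 33469 promoters. Direct repeats of the same motif spaced by 2 or by 1 base were in 0.170% and 0.233% of all promoters and in 0 of the 33. The sequences of the first 2 are shown because they carry the receptor-binding layout named above, in called retinoid genes. The capitals mark the DR5.

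Cyp26a1, bases -250 to -1 before the start, chr1:244883572-244883821, plus strand: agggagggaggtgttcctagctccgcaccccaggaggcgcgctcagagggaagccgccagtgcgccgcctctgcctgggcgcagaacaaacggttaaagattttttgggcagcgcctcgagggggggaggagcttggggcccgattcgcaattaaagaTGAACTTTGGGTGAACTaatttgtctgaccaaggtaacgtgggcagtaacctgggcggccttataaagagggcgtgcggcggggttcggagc
Rarb, bases 19 to 47 after the start the table uses, chr15:11336410-11336438, plus strand: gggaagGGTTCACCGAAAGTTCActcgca

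In Cyp26a1 the repeat lay on the minus strand, where it reads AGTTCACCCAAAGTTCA, at bases -92 to -76. In Rarb it lay on the plus strand at bases 25 to 41. A match describes these letters and says nothing of binding in these livers.

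Values below are the deposited log2 signals, on which each array's median is 0. A gene was called when its adjusted p was under 0.05 (limma, Benjamini-Hochberg adjustment over all 28869 probe sets tested), and each gene is given by its brightest probe set. At 6 h, 58 probe sets were called (0.201% of those tested), 34 higher (0.118%) and 24 lower (0.0831%) in RA livers. They held 38 named genes of 13647 tested (0.278%), 22 higher (0.161%) and 16 lower (0.117%). Another 15 called probe sets, 10 higher and 5 lower, had no single gene name, and 5 were second probe sets. For each called gene the 3 RA arrays all lay beyond the 3 vehicle arrays, which was so upward for 4.51% and downward for 6.5% of all probe sets. The count rested on single arrays. It was 26 without RA replicate 1, 26 without RA replicate 3 and 25 without vehicle replicate 3, and it was 135 when 16 h replicates 1 and 2, which correlated least with the other arrays (median r of 0.664 and 0.717), stayed out of the shared estimate of spread. Without an intensity trend in the variance it was 5, with no retinoid gene among them.

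Median correlations with the other arrays of the experiment were 0.784 to 0.793 in RA livers and 0.761 to 0.808 in vehicle livers, lowest in vehicle replicate 1. That array had 57 probe sets at its floor, against 403 in each of vehicle replicates 2 and 3. The RA livers had 122, 32 and 127. The difference of 3' and 5' GAPDH control signals, a sign of RNA quality, was 0.467 to 0.778 in RA livers and 0.437 to 0.947 in vehicle livers on the log2 scale. For actin it was larger, 2.394, 2.229 and 2.293 in RA livers and 2.462, 1.715 and 1.936 in vehicle livers. Vehicle replicates 2 and 3 thus lay below every RA liver for actin, and the part of RNA quality in the results was not tested. The hepatocyte list had 0 of 11 members called and a median difference of -0.02, beside -0.10 over all named genes. Vehicle replicate 2 had the highest signal of the 3 vehicle livers for 18 of the 22 genes called higher, and without it 61 probe sets were called higher and 15 lower. Vehicle replicate 1 had the lowest signal for 14 of the 22, and without it the balance turned, with 15 called higher and 45 lower. Vehicle replicate 1 was also lowest for 10 of the 16 genes called lower. Its upper quartile was 1.41, against 1.845 and 1.825 in vehicle replicates 2 and 3. These orders were not counted over all probe sets, so whether they belong to these genes or to whole arrays was not tested. Cyp2c22 in vehicle replicate 2 (7.11) lay within the adequate range of the diet experiment (6.45 to 7.21). The deficient range there was 0.67 to 3.86. Its Lrat (2.62) lay above both ranges (adequate 1.68 to 2.03, deficient -3.32 to 0.10). Its Cyp26a1 (-1.14) and Oaf (4.58) lay within the deficient ranges (-3.32 to -0.43 and 3.79 to 4.71). Whether this rat was as deficient as the others was not tested.

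**Figure D1:**
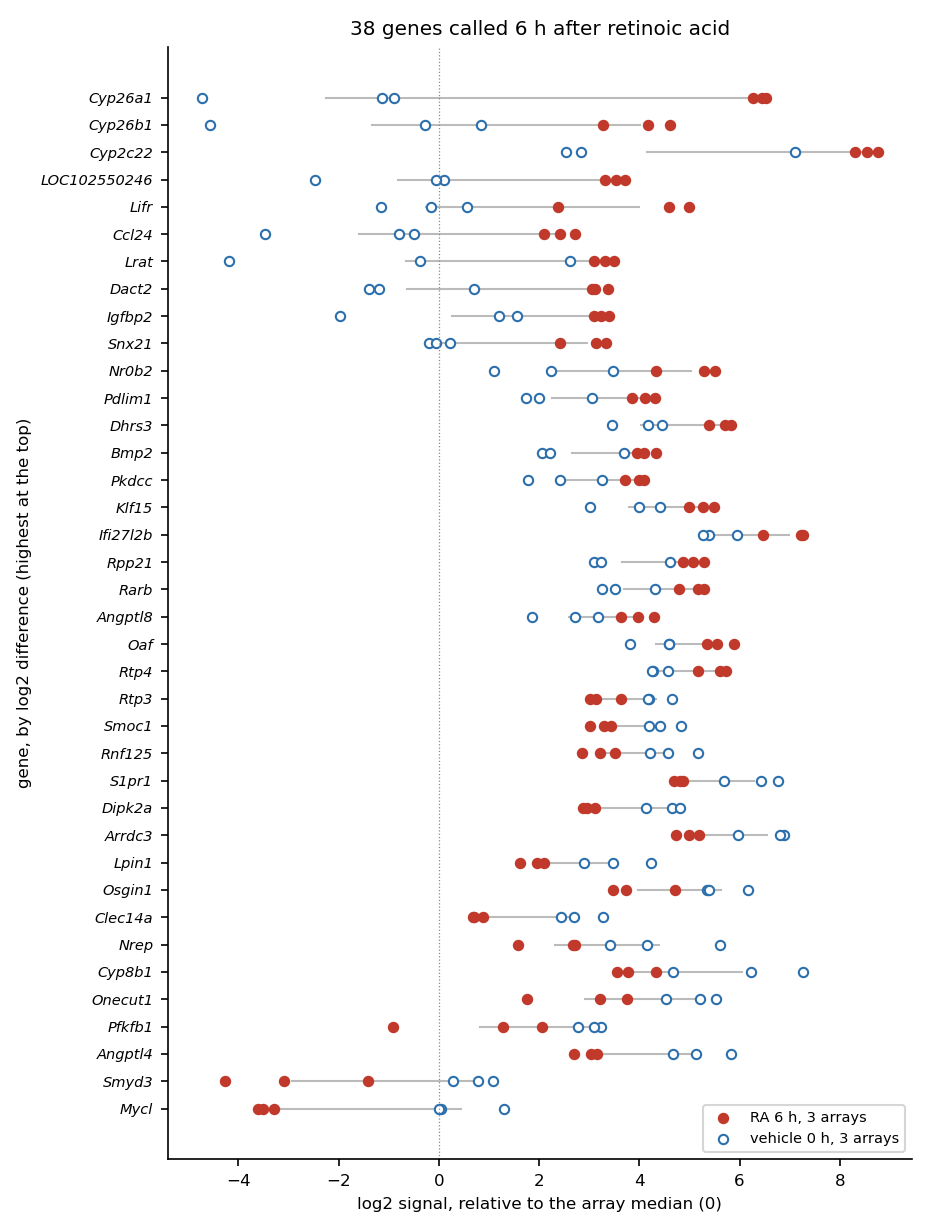
Log2 signal relative to the array median (x axis) of the 38 genes called 6 h after RA (y axis, ordered by log2 difference). Filled points are the 3 RA 6 h arrays, open points the 3 vehicle arrays, and the grey line joins the group means; Cyp26a1, at the top, lay between 6.27 and 6.52 in RA livers and between -4.73 and -0.89 in vehicle livers.

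The genes that break RA down rose most. Cyp26a1, the main RA hydroxylase of liver, had 6.52, 6.27 and 6.45 in RA livers and -0.89, -1.14 and -4.73 in vehicle livers. Its RA arrays lay within a narrow band, while all 3 vehicle values were under the 40th percentile of their arrays, so the size of the difference, 8.67 ± 0.94 (SE, adjusted p = 9.63e-06), rests on dim signals. Cyp26b1, a second RA hydroxylase, had 4.61, 3.27 and 4.17 in RA livers and -4.57, 0.84 and -0.28 in vehicle livers, a difference of 5.35 ± 0.79 (adjusted p = 0.000613) that ranged from 3.74 to 6.44 when 1 array was left out. A dimmer probe set of Cyp26b1 gave 2.86 (adjusted p = 0.792). Cyp2c22, a rat P450 that hydroxylates RA, had 8.76, 8.31 and 8.55 in RA livers and 2.54, 7.11 and 2.83 in vehicle livers. It was among the bright genes of every RA liver, and vehicle replicate 2 stood far above the other vehicle livers, though below the RA livers. The difference was 4.38 ± 0.60 (adjusted p = 0.000144). These 3 of the 6 tested members of the RA breakdown list rose, and the list's median difference was 2.74. Cyp3a9, a P450 that also takes retinoids, had means of 3.98 ± 0.87 in RA livers and 2.88 ± 1.26 in vehicle livers (SD, n = 3 each) and was not called (adjusted p = 0.724).

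Genes that return retinoids to storage also rose. Dhrs3, which reduces retinaldehyde to retinol, had 5.71, 5.40 and 5.83 in RA livers and 3.46, 4.45 and 4.17 in vehicle livers, a difference of 1.62 ± 0.25 (adjusted p = 0.000976). Lrat had 3.32, 3.10 and 3.49 in RA livers and -0.39, 2.62 and -4.18 in vehicle livers. The RA livers were nearly alike while the vehicle livers differed widely. The Lrat difference of 3.95 ± 0.82 (adjusted p = 0.0276) was called in 1 of the 6 fits that each left out 1 array, where it ranged from 2.19 to 5.59 with an adjusted p of up to 0.205. Dhrs3 was called in all 6. In the lists of retinol and retinaldehyde conversion and of retinol storage and binding, these were the 1 of 16 and the 1 of 18 members called. A dimmer probe set of Adh1c, an alcohol dehydrogenase gene, was called lower at -1.45 (adjusted p = 0.00595), while its brightest gave -0.65 (adjusted p = 0.408).

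Of the receptors, Rarb, the RA receptor gene that is itself an RA target, had 5.17, 4.79 and 5.29 in RA livers and 3.25, 4.32 and 3.52 in vehicle livers, a difference of 1.39 ± 0.29 (adjusted p = 0.0297). It held in 2 of the 6 fits without 1 array (adjusted p up to 0.209). It was 1 of 14 tested members of the receptor and cofactor list called. Rara (-0.15), Rarg (-0.65) and the retinol uptake receptor gene Stra6 (-0.70) had adjusted p-values of 1, as had Crabp2, a RA-binding protein gene, at -0.55.

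**Figure D2:**
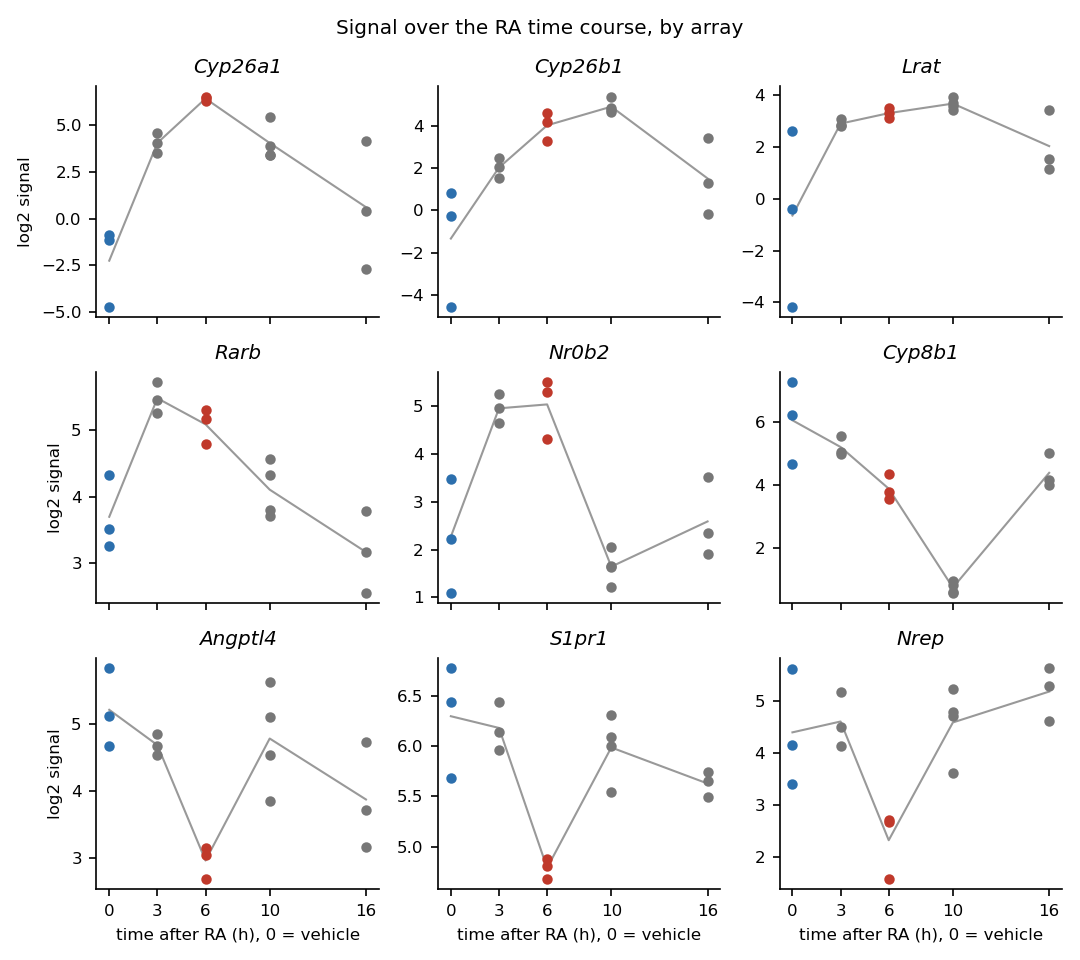
Log2 signal (y axis) of 9 genes on each array against time after RA in h (x axis), with vehicle at 0 h in blue, 6 h in red and the line through group means. Cyp26a1 averaged 4.04 at 3 h, 6.42 at 6 h and 4.04 at 10 h, and the 6 h points of Angptl4, S1pr1 and Nrep lay below those of every other time.

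The other genes that rose came from several processes. Nr0b2, which encodes the nuclear repressor SHP of bile acid and lipid genes, had 5.50, 4.32 and 5.29 in RA livers and 1.10, 3.48 and 2.23 in vehicle livers, a difference of 2.77 ± 0.42 (adjusted p = 0.000845). Cyp8b1, the sterol 12-alpha-hydroxylase that SHP is known to repress, was lower, with 4.33, 3.77 and 3.55 in RA livers and 6.24, 4.67 and 7.26 in vehicle livers. Its groups did not overlap, although vehicle replicate 2 came near the highest RA liver, and the difference was -2.17 ± 0.38 (adjusted p = 0.0055). That call was lost without RA replicate 3 and without vehicle replicate 3 (adjusted p up to 0.107). Cyp8b1 was the 1 of 16 members of the bile acid synthesis list called. Nr0b2 was the 1 of 19 metabolic nuclear receptor genes called. Whether the Cyp8b1 difference depends on Nr0b2 was not tested.

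Receptors and secreted signals were among the risers. Lifr, the receptor for leukaemia inhibitory factor, had 5.00, 2.38 and 4.58 in RA livers and -0.17, 0.56 and -1.15 in vehicle livers. The difference was 4.24 ± 0.68 (adjusted p = 0.00139), and a second probe set gave 4.71 (adjusted p = 0.00283). Igfbp2, an IGF-binding protein gene, had 3.40, 3.24 and 3.10 in RA livers and 1.21, 1.55 and -1.96 in vehicle livers, a difference of 2.98 ± 0.51 (adjusted p = 0.00413) that was 1.87 without vehicle replicate 3. Ccl24, an eosinophil-attracting chemokine gene, rose by 3.99 ± 0.71 (adjusted p = 0.00569), a call lost without RA replicate 3 and without vehicle replicate 3 (adjusted p up to 0.0653). Its vehicle signals were under the 40th percentile on 2 of the 3 arrays. Bmp2, a ligand that controls iron through hepcidin and comes from liver endothelium, rose by 1.46 ± 0.32 (adjusted p = 0.0415), a call that held in 1 of the 6 fits without 1 array. A dimmer probe set of Bmp2 gave 1.29 (adjusted p = 0.859). In the insulin and IGF list 2 of 23 members rose and 1 fell, the fall being Onecut1.

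Among the remaining 11 risers were Dact2, an inhibitor of growth factor signalling (3.81 ± 0.77, adjusted p = 0.0197), Snx21, a sorting nexin gene of vesicle traffic (2.97 ± 0.47, adjusted p = 0.00139), Pdlim1, of the cytoskeleton (1.84 ± 0.36, adjusted p = 0.0175), and Pkdcc (1.45 ± 0.30, adjusted p = 0.0289). Vehicle signals of Dact2 were under the 40th percentile on 2 of the 3 arrays. LOC102550246, an unnamed locus, rose by 4.32 ± 0.49 (adjusted p = 9.63e-06). Angptl8, an inhibitor of lipoprotein lipase, rose by 1.37 ± 0.29 (adjusted p = 0.0299). The interferon-responsive genes Ifi27l2b (1.44, adjusted p = 0.0102) and Rtp4 (1.14, adjusted p = 0.0349) rose too, the 2 of 31 members of the interferon list called, while that list's median difference was -0.18. Klf15, a glucocorticoid-responsive factor gene (1.45, adjusted p = 0.0317), Oaf (1.27, adjusted p = 0.0165) and Rpp21, a ribonuclease P subunit gene (1.43, adjusted p = 0.0197), completed the 22. Other probe sets of Klf15 gave 1.43 and 0.07, with adjusted p-values of 0.178 and 1.

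The genes that fell included several of lipid and sugar metabolism. Angptl4, whose product inhibits lipoprotein lipase, had 3.04, 2.69 and 3.15 in RA livers and 5.12, 5.83 and 4.68 in vehicle livers, a difference of -2.25 ± 0.35 (adjusted p = 0.00116). Lpin1, a phosphatidate phosphatase of triglyceride assembly, fell by 1.64 ± 0.32 (adjusted p = 0.0148), while its dimmer probe set gave -1.36 (adjusted p = 0.143). In the list of triglyceride assembly and lipase control, of 34 members tested, Angptl8 rose and Angptl4 and Lpin1 fell. Pfkfb1, the bifunctional enzyme that sets fructose-2,6-bisphosphate, had 1.28, 2.06 and -0.91 in RA livers and 3.23, 2.77 and 3.09 in vehicle livers (-2.22 ± 0.45, adjusted p = 0.0197). RA replicate 3 was far below the other RA livers, and without it the Pfkfb1 difference was -1.36 and not called; the call was also lost without vehicle replicate 1 and without vehicle replicate 3 (adjusted p up to 0.209). Osgin1, a gene of the oxidative stress response, fell by 1.65 ± 0.28 (adjusted p = 0.00283).

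Onecut1, a liver transcription factor gene (HNF6), had 3.22, 1.75 and 3.76 in RA livers and 4.53, 5.21 and 5.53 in vehicle livers, a difference of -2.18 ± 0.41 (adjusted p = 0.0108), while its dimmer probe set gave -0.96 (adjusted p = 0.932). S1pr1, a sphingosine-1-phosphate receptor gene of endothelium and lymphocytes, had 4.88, 4.68 and 4.81 in RA livers and 5.68, 6.77 and 6.43 in vehicle livers (-1.50 ± 0.24, adjusted p = 0.00116), and a dimmer probe set gave -0.27 (adjusted p = 1). Clec14a, an endothelial lectin gene, fell by 2.05 ± 0.39 (adjusted p = 0.0135). Whole livers were measured, so fewer cells of a type and less RNA per cell cannot be told apart. In the endothelial list 8 of 11 members lay below 0 and 3 above it, while 5552 of all 13647 named genes lay above it. The summed linear signal of the 11 was 112 to 132 in RA livers and 88.1 to 156 in vehicle livers. Their median difference was -0.36 and Bmp2 was the only call. The part of cell number in the S1pr1 and Clec14a differences was not tested. Stellate markers had a median of -0.60 with Lrat alone called of 15, and Kupffer markers -0.18 with 0 of 11 called.

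Mycl, a MYC family gene, and Smyd3, a protein methyltransferase gene, had the largest falls among the 16 genes, each taken at its brightest probe set, and both had dim signals in RA livers. A second probe set of Dact1 was called at -4.41 (adjusted p = 0.0164), while its brightest gave -0.73 (adjusted p = 1). Mycl had -3.61, -3.50 and -3.30 in RA livers and 0.03, 0.00 and 1.29 in vehicle livers (-3.91 ± 0.77, adjusted p = 0.0175). Smyd3 had -3.09, -1.41 and -4.26 in RA livers and 1.07, 0.78 and 0.28 in vehicle livers (-3.63 ± 0.71, adjusted p = 0.0164). All 3 RA values of both genes were under the 40th percentile of their arrays, and the Smyd3 call held in 1 of the 6 fits without 1 array. Nrep (-2.07), Arrdc3 (-1.58), Dipk2a (-1.55), Rnf125 (-1.45), Smoc1 (-1.23) and Rtp3 (-1.08) made up the rest of the 16, with adjusted p-values of 0.0108 to 0.0299. Dimmer probe sets of Arrdc3 (-1.48), Dipk2a (-1.42) and Smoc1 (-0.86) were not called.

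Of the 38 genes, 12 were called in every one of the 6 fits without 1 array, 9 of them higher: Cyp26a1, Cyp26b1, Cyp2c22, Dhrs3, Nr0b2, Lifr, Igfbp2, Snx21 and LOC102550246 higher, and Angptl4, S1pr1 and Osgin1 lower. The other 26 each lost the call without at least 1 array, with an adjusted p of up to 0.382 (Bmp2), and none changed sign.

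Several metabolic lists had 0 members called: lipogenesis (20 tested), cholesterol synthesis and its control (22), fatty acid oxidation (27), drug-metabolising P450 genes (25), conjugating enzymes (25) and gluconeogenesis (28), with median differences from -0.34 to 0.08. The largest difference among their members was that of Sult1c3, a sulfotransferase gene, at 3.76 (adjusted p = 0.14), with a mean of 1.67 ± 0.34 in RA livers and -2.09 ± 3.10 in vehicle livers (SD, n = 3 each). Por, the reductase that passes electrons to P450 enzymes, was 1.20 higher and missed the threshold (adjusted p = 0.0775), while its dimmer probe set was called at 1.47 (adjusted p = 0.0486). Members with the next smallest p-values in these lists were the amino acid enzymes Gpt2 (1.34) and Hal (1.12), the male-specific P450 gene Cyp2c11 (-1.56), Sult1a1 (-0.89), the cholesterol genes Insig2 (0.99) and Fdps (-0.69), the lipogenic genes Scd (0.99) and Thrsp (0.85), and Pdk4 (-0.63) and Eci2 (0.49) of fatty acid use, with adjusted p-values of 0.143 to 0.936. The bile acid and sterol transport list also had 0 of 18 called, with Abca1 at -0.75 and Abcb1a at -0.97. The core clock list had 0 of 16 called, a median of 0.17 and members from -2.09 (Bhlhe41) to 1.94 (Per2); its smallest p-values were those of Nr1d2 (1.00) and Nfil3 (-1.14), with adjusted p-values of 0.715 and 0.771. The part of time of day in the results was not tested. Lists of immediate early, NF-kappaB, acute phase, ER stress, cell cycle and ribosomal protein genes also had 0 called. Their members with the smallest p-values were Jun (-1.44, adjusted p = 0.143) and Rhob (-1.66), Il1b (-1.36) and Tnfaip3 (-1.28), A2m (-1.10) and Serpina3n (-0.42), Hsp90b1 (-0.81) and Sdf2l1 (-0.64), Top2a (-2.38) and Ccnd1 (0.68), and Rplp0 (-0.18) and Rpl11 (-0.16), with adjusted p-values of 0.143 to 1. Other lists with 1 call, of genes named above, were glycolysis and glycogen (Pfkfb1, 1 of 19), BMP signalling and iron (Bmp2, 1 of 20), RA receptor targets known in other tissues (Bmp2, 1 of 23, median 0.17) and glucocorticoid-induced genes (Angptl4, lower, 1 of 17). Marker lists of cholangiocytes, B cells, T and NK cells, neutrophils, erythroid cells and pancreatic acinar cells had 0 called. At an unadjusted p under 0.05, 1474 probe sets passed in limma, 5.11% of those tested, beside the 5% that such a threshold passes when nothing differs.

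**Figure D3:**
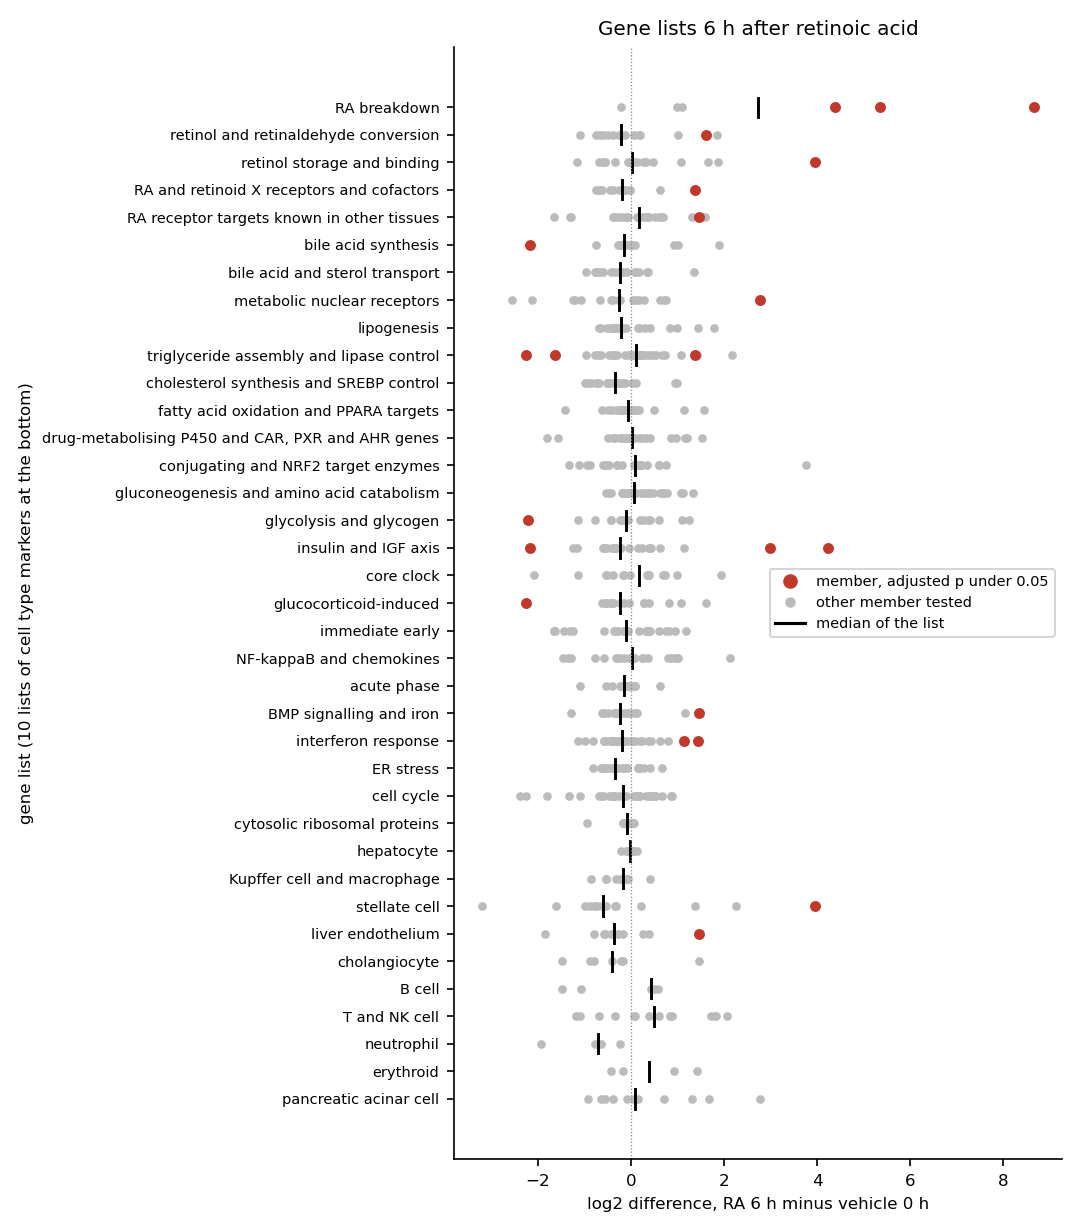
Log2 difference of RA 6 h minus vehicle 0 h (x axis) for every tested member of the 37 gene lists (y axis, cell type markers at the bottom). Red points are called members, grey points the others, and the black bar is each list's median; the RA breakdown list, with a median of 2.74, stands furthest right, while the hepatocyte list sits at -0.02.

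Against RA at 3 h, a difference of means that uses no vehicle array although all 16 arrays set its spread, 6 probe sets were called (0.0208% of those tested), 0 of them higher at 6 h and 6 lower. The 5 named genes (0.0366% of those tested, all lower) were Skil, a TGF-beta signalling repressor gene (-2.01 ± 0.25, adjusted p = 0.00024), S1pr1 (-1.39, adjusted p = 0.0195), Nrep (-2.28, adjusted p = 0.0392), Pfkfb1 (-2.42, adjusted p = 0.0445) and Smyd3 (-3.80, adjusted p = 0.0445). Skil averaged 2.65 ± 0.08 at 6 h and 4.66 at 3 h. Cyp26a1 was 2.37 higher at 6 h than at 3 h and Cyp26b1 2.00 higher, and neither difference was called (adjusted p = 1). Rarb, Nr0b2, Dhrs3, Bmp2 and Lrat differed between 6 h and 3 h by -0.39 to 0.40, with no call. The 16 h arrays that stood apart weighed on this count as well, which was 23 without them.

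Against RA at 10 h, 39 probe sets were called (0.135%), 28 higher (0.097%) and 11 lower (0.0381%) at 6 h. They held 29 named genes (0.213%), 21 higher (0.154%) and 8 lower (0.0586%). Nr0b2 had 5.50, 4.32 and 5.29 at 6 h and a mean of 1.64 at 10 h, a difference of 3.39 (adjusted p = 2.03e-05), and Cyp8b1, at 3.88 ± 0.41 at 6 h, was 0.74 at 10 h, a difference of 3.14 (adjusted p = 2.03e-05). Nr0b2 was thus high at 3 h and 6 h and low at 10 h, while Cyp8b1 was lower still at 10 h than at 6 h. Hsd17b2, a steroid dehydrogenase gene (2.53, adjusted p = 0.000121), Thrsp, a lipogenic regulator (2.24, adjusted p = 0.000104), and Sds, serine dehydratase (2.24, adjusted p = 0.0145), completed the 5 largest differences upward. Mycl (-4.05, adjusted p = 0.00763), Smyd3 (-3.62, adjusted p = 0.0097), Nrep (-2.26, adjusted p = 0.00442), Angptl4 (-1.82, adjusted p = 0.00779) and Inhba, an activin subunit gene (-1.43, adjusted p = 0.0278), were the 5 largest downward. Both time comparisons share the 6 h arrays with the comparison to vehicle. Without the 16 h arrays that stood apart the count was 129.

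The called genes were then read in rats and arrays not used to choose them. In the diet experiment, where the rats were also aged 8 weeks, those fed 0 mg of retinol per kg of diet (5 arrays) were set against those fed 4 mg (6 arrays). The run of identifiers was a covariate. Of the 22 genes higher at 6 h, 11 were called lower in deficient livers and 0 higher, beside 1.43% of all genes called lower and 0.121% higher (1.55% in all), and 21 lay below 0, as did 64.6% of all genes. Their median was -1.22, beside -0.16 for all genes. Cyp2c22 was -4.57 (adjusted p = 6.54e-12), Lrat -2.89 (adjusted p = 2.72e-05), Lifr -2.65 (adjusted p = 0.00189), Cyp26a1 -1.94 (adjusted p = 0.0255) and Rarb -1.28 (adjusted p = 0.00303). The other 6 were Rpp21, Ifi27l2b, Oaf, Bmp2, Rtp4 and Angptl8. The second probe set of Lifr gave -1.66 in the diet comparison and was not called (adjusted p = 0.29). Cyp26b1 (-1.59, adjusted p = 0.409) and Nr0b2 (-0.30, adjusted p = 0.695) were not called. Of the 16 genes lower at 6 h, 1 was called, Nrep, also lower in deficient livers, and 10 lay below 0.

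**Figure D4:**
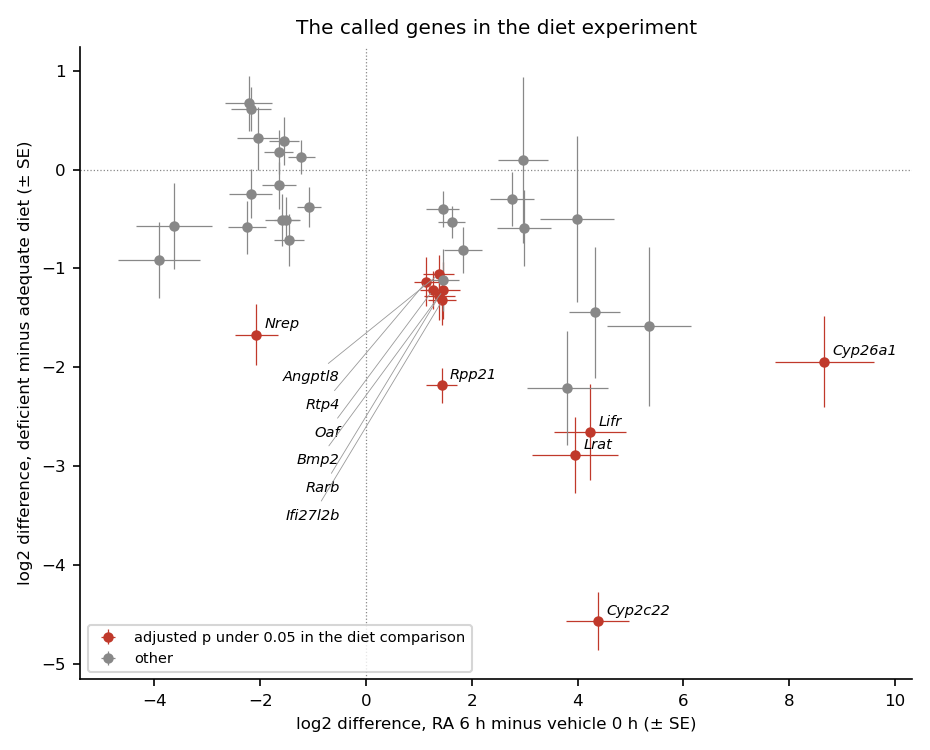
Log2 difference of deficient minus adequate diet (y axis) against log2 difference of RA 6 h minus vehicle 0 h (x axis) for the 38 called genes, with standard errors; red points were called in the diet comparison and are named. Of the genes to the right of 0, 21 of 22 lie below the horizontal line, with Cyp2c22 lowest at -4.57.

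In the intravenous experiment, female rats aged 8 weeks on a stock diet had their food removed and were injected with about 25 µg of RA bound to albumin under isoflurane. The 3 rats killed at 90 min were set against 2 vehicle rats killed at 0 min, so here too RA cannot be told apart from the time since injection. Of the 22 genes, 10 were called higher and 0 lower, beside 0.504% of all genes called higher and 0.231% lower (0.734% in all), and 18 lay above 0, while 65.1% of all genes lay below it. Cyp26a1 was 5.61 higher (adjusted p = 0.000149), Cyp26b1 3.48 (adjusted p = 4.6e-06), Nr0b2 1.96 (adjusted p = 0.0141), Cyp2c22 1.81 (adjusted p = 4.51e-05), Rarb 1.45 (adjusted p = 0.0013) and Lrat 0.88 (adjusted p = 0.0476), with Pdlim1, Klf15, Pkdcc and Bmp2 making up the 10. Lifr (0.56, adjusted p = 0.855) and LOC102550246 (-0.12, adjusted p = 0.95), both far higher at 6 h in deficient rats, were not called. Of the 16 genes lower at 6 h, 1 was called lower, Rnf125 (-1.92, adjusted p = 0.017), and the median was -0.53, beside -0.13 for all genes. Cyp8b1 was -0.22 in this comparison (adjusted p = 0.689).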

How the data were processed

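The deposited table holds log2 signal values made by the authors with GCOS (version not given), per the submitters' processing notes. The median of every array is 0, its lowest probe sets share a floor, and no further transformation was made. Of 31099 probe sets, 20832 matched 1 gene in the platform annotation. After 57 control probe sets were left out, 28869 were tested, those that passed the 40th percentile of the array on 2 or more of the 16 arrays, with limma 3.58.1 in R 4.3.3 (lmFit on group means, eBayes with an intensity trend). The diet and intravenous experiments were fitted separately. Each gene was represented by its brightest probe set. Named were the 15 largest called changes in each direction, 13 retinoid genes (1 is not reported here), called or lowest-p members of lists and the 5 largest per time contrast; Klf15, Oaf, Rpp21, Rtp3 and values given beside them were chosen after their values were seen. The comparison and lists were chosen with earlier results of these data known. On simulated data of this design, 4%, 24%, 42% and 42% of 2-fold, 4-fold, 8-fold and 16-fold changes were recovered (50 probe sets each). Of the calls made there, 6.67% were unchanged probe sets. The number of arrays limits the precision. Same-numbered RA and vehicle arrays did not deviate together. Replicates were separate rats. Alternatives tried were another normalization, filters, variance models, array weights, an offset, a replicate block and fits leaving out arrays.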

Additional observations from a re-analysis of the deposited data

Results flagged for a closer look

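In groups of 4 to 10 arrays, 30 sets of values of genes named in the time and diet comparisons were examined for an array far from the others, and 2 had one; chance gives about 1 in 20. Cyp26a1 in adequate-diet replicate 1 was 1.26, against a median of 0.22 in that group. Nrep in deficient-diet replicate 5 was 1.92, against a median of 3.75.

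The RA effect at 6 h differed from that at 3 h, by the contrast of the 2 times, for Nrep (-2.28), Pfkfb1 (-2.42), S1pr1 (-1.39), Skil (-2.01) and Smyd3 (-3.80). It differed from that at 10 h for 29 named genes, of which the 5 largest in each direction were Nr0b2 (3.39), Cyp8b1 (3.14), Hsd17b2 (2.53), Thrsp (2.24), Sds (2.24) upward and Angptl4 (-1.82), Inhba (-1.43), Nrep (-2.26), Smyd3 (-3.62) and Mycl (-4.05) downward.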

How the results depend on the processing

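All 58 probe sets called at 6 h against vehicle kept their sign in every alternative in which they were tested, while the number called moved. Called in all (higher and lower) were 141 (96 and 45) with quantile normalization, 38 (21 and 17) with the stricter filter, 5 (3 and 2) without a variance trend, 272 (89 and 183) with array weights and 135 (74 and 61) without 16 h arrays 1 and 2 or without the 16 h group, the last choices being made after seeing the data. Leaving out 1 array gave 25 to 76 (13 to 61 higher, 6 to 45 lower), with 15 higher and 45 lower without vehicle replicate 1 and 61 higher and 15 lower without vehicle replicate 2. Against 3 h the count of 6 (0 higher) became 3 (3 lower) with no filter, 23 (1 and 22) without the 16 h arrays or group, and 1 to 9 (0 to 1 higher, 1 to 8 lower) without 1 array. With quantile normalization and without a trend 1 was higher. Against 10 h the count of 39 became 87 (47 and 40) with quantile normalization, 6 (3 and 3) without a trend, 129 (105 and 24) without the 16 h arrays, 131 (107 and 24) without the group, and 17 to 44 (12 to 35 higher, 4 to 10 lower) without 1 array. The diet count of 299 was 167 without the run covariate.

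Same-numbered RA and vehicle arrays did not deviate together over all probe sets tested (correlations -0.017, -0.015 and 0.020). Such values cannot show whether the numbers paired the rats, since a pairing that touched few probe sets would barely move them. With the replicate block 44 were called against vehicle, without Lrat and Rarb, 5 against 3 h and 23 (4 lower) against 10 h. Rara ranged from -0.50 to 0.26 and Crabp2 from -1.67 to 0.23 without 1 array. Rara changed sign to 0.26 without RA replicate 2 and to 0.03 without vehicle replicate 2, and Crabp2 to 0.23 without RA replicate 3 and 0.22 without vehicle replicate 3; neither was called. The cause of these changes was not tested. Signals under the 40th percentile on all 3 arrays of 1 group limit the size of the differences of Cyp26a1, Mycl and Smyd3. The same limit applies in part to other large rises. Vehicle signals were under it on 2 of 3 arrays for Ccl24 and Dact2. They were under it on 1 of 3 for Cyp26b1, Lrat, Lifr, Igfbp2 and LOC102550246.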
